A study of Nasonia vitripennis with 51 samples.

Results

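The samples described here are the heads and bodies of females of the parasitoid wasp Nasonia vitripennis that fed for 48 h on 20% sucrose with 10 µM 5-aza-2'-deoxycytidine (5-aza-dC) and were harvested 0, 24 or 48 h after that exposure. They were chosen by the feeding regime and harvest time in their labels, and make up 17 of the 51 samples of the study. The head samples number 2 at 0 h, 3 at 24 h and 3 at 48 h, and the body samples (thorax and abdomen) number 3 at each time. Each sample pooled 10 females of AsymC, a wild-type strain cured of the bacterium Wolbachia and reared on blowfly hosts. All 3 groups carried the same 48 h exposure, so no group of this regime was unexposed. The other regimes fed for 24 h, with 5-aza-dC (16 samples, called the 24 h regime here) or on sucrose alone (18 samples). Feeding time and 5-aza-dC therefore cannot be told apart between the 48 h regime and sucrose samples. The labels give no age, and call the replicates biological. The question of the time course was whether the methylation level of any CpG moved in the 48 h after the inhibitor was withdrawn.

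5-aza-dC is a cytidine analogue that is built into DNA during replication, where it traps DNA methyltransferases and so leaves newly made strands less methylated. Cells that do not divide are known to take up little of it into their DNA. Nasonia has a full set of DNA methyltransferases, and its methylation lies mostly in the transcribed part of a minority of genes, at CpGs that are close to fully methylated, while the rest of the genome is close to unmethylated. A level is given here as the percentage of reads over a CpG that were methylated in a sample. Genes and sequences are not given, because no genome or annotation of the build of the files was used here; sites are given by chromosome or scaffold and position as deposited, and the build is not given in the sources used here.

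In the 48 h regime 1831418 of the 4150376 deposited CpGs had at least 3 reads in every sample. The mean number of reads per CpG ranged from 5.98 to 43.1. The lowest value belonged to replicate 1 of bodies at 0 h, and the other 16 samples had 18.6 or more. Most of these CpGs had almost no methylation, and 4571 had a mean level of 50% or above over the 17 samples. At those CpGs the heads stood above the bodies at each time, as in 88.0%, 88.1% and 87.7% in heads at 0, 24 and 48 h and 80.9%, 82.1% and 82.1% in bodies, and the head and body samples did not overlap at any time. The tissue labels could be checked by this separation alone, since no gene markers were measured. For replicate 1 of bodies at each time, the title gives another harvest time than the characteristics (48 h, 0 h and 24 h for the samples characterised as 0 h, 24 h and 48 h). The characteristics were used, and results with the title times or without these 3 samples stand beside the counts below. In sucrose samples at 24 h and 48 h, replicate 1 of bodies also has another time in its title. In the 24 h regime this holds at each time. In every regime, each such title gives the harvest time that the characteristics give for the sample listed before it. Which time is right was not tested. Comparisons with sucrose samples and the 24 h regime used the characteristics alone.

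Some head and body samples of one harvest time deviated together. Across 3252 CpGs of mean level 20% to 80%, each sample's deviation from the mean of its tissue and time was set against those of the samples of the other tissue at the same time. At 24 h, head replicate 2 and body replicate 1 had r = 0.244, head replicate 1 and body replicate 2 had r = 0.219, and head replicate 3 and body replicate 3 had r = 0.072. At 48 h, head replicate 1 and body replicate 1 had r = 0.184, and head replicate 2 and body replicate 3 had r = 0.204. At 0 h no pair was above 0.071 in size, and at 24 h and 48 h the other pairs lay between -0.223 and 0.032. Deviations of 2 or 3 replicates sum to 0, so the values of one time are not independent. These correlations are across CpGs of pairs of libraries and are a description. The labels do not pair heads with bodies. The tests over 17 samples treat them as independent, so their p-values are too small to the extent that heads and bodies share females, and fits of heads alone and of bodies alone are given beside the main counts.

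The average level of methylated CpGs was nearly flat over the 48 h. Over the 4571 CpGs of mean level 50% or above, the heads had 88.1% and 87.9% at 0 h, 88.0%, 87.9% and 88.3% at 24 h, and 88.9%, 87.4% and 87.0% at 48 h. The bodies had 81.5%, 80.3% and 80.9% at 0 h, 82.4%, 82.1% and 81.7% at 24 h, and 82.4%, 81.6% and 82.3% at 48 h. Heads overlapped at all 3 times, and body samples at 0 h lay below every body sample at 24 h and 48 h. Body background (defined below) was also lower at 0 h. With background removed from the unmethylated share, bodies overlapped, with means of 80.87%, 81.52% and 81.64% at 0, 24 and 48 h. Replicate 1 of bodies at 0 h then had 81.53%, against lows of 81.22% at 24 h and 81.19% at 48 h. At CpGs of mean level 80% or above, background kept, that sample had 88.93%, above every body sample at 24 h and 48 h. Averaged over the tissues at the 4571 CpGs, background kept, the means were 84.5%, 85.1% and 84.9% at 0, 24 and 48 h. The difference of 24 h and 0 h was 0.60 points (exact permutation of times within tissue, two-sided p = 0.065, adjusted p = 0.48 over 12 tests), and no contrast of this class passed the test. In bodies alone the 24 h mean was 1.18 points and the 48 h mean 1.21 points above that of 0 h (exact permutation p = 0.10 each, the smallest that 3 samples against 3 allow, adjusted p = 0.24). In heads alone the 24 h mean lay 0.024 points above that of 0 h and the 48 h mean differed from that of 0 h by -0.32 points (exact permutation p = 0.90 and 0.80). The change in heads minus the change in bodies was -1.16 points for 24 h − 0 h (exact permutation of tissues within harvest time, p = 0.80). Heads lay far above bodies at each time, which widens the permuted differences. This p-value therefore cannot decide whether the change differed between the tissues.

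CpGs of intermediate level (10% to 50%, 38494 CpGs) showed no difference among times either. Their tissue-averaged means were 14.6% at 0 h, 14.6% at 24 h and 14.1% at 48 h (exact permutation p = 0.95 for any difference among times). Single samples ranged widely, between 9.56% in replicate 3 of heads at 48 h and 20.8% in replicate 1 of bodies at 0 h. With the classes of CpGs set by level in sucrose samples, that body sample had 17.2%, against 14.9% and 13.9% in the other body samples at 0 h. The levels of the shallow library had no part in those classes, though CpGs still needed reads in it.

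The background is the mean level over the 534180 CpGs under 2%. By the harvest times of the characteristics it rose after 0 h in bodies and not in heads. In heads it was 1.05% and 2.01% at 0 h, 0.77%, 0.60% and 1.03% at 24 h, and 1.14%, 1.21% and 0.54% at 48 h. In bodies it was 0.014%, 0.15% and 0.15% at 0 h, 6.29%, 0.61% and 1.91% at 24 h, and 3.10%, 2.37% and 2.18% at 48 h. Every body sample at 24 h and 48 h was above every body sample at 0 h, whereas the heads overlapped. From 0 h to 48 h the change in heads was -0.57 points and the change in bodies 2.45 points. The change in heads minus that in bodies was -3.02 points (exact permutation of tissues within harvest time, p = 0.005, the smallest that the design allows, adjusted p = 0.045 over 9 tests). This shuffling treats heads and bodies as alike at each time. A tissue difference at a single time therefore also enters the p-value, which is no test of the change alone. The call was lost with the title times, where the bodies changed by -0.67 points and the change in heads minus that in bodies was 0.10 points (exact permutation p = 0.985). Without the 3 bodies with other titles it was -2.70 points (p = 0.017, adjusted p = 0.15, exact permutation). Without any 1 library of 0 h or 48 h it lay between -3.50 and -2.53 points, with an adjusted p of 0.068 to 0.15. With the background CpGs set in sucrose samples the bodies had 0.34% ± 0.017, 4.23% ± 4.09 and 4.42% ± 1.07 at 0, 24 and 48 h (SD, n = 3 each). Incomplete bisulphite conversion and methylation at these CpGs both count as methylated reads and cannot be told apart here. Over both tissues, no contrast of background passed the test (adjusted p = 0.48 or more, exact permutation).

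**Figure D1:**
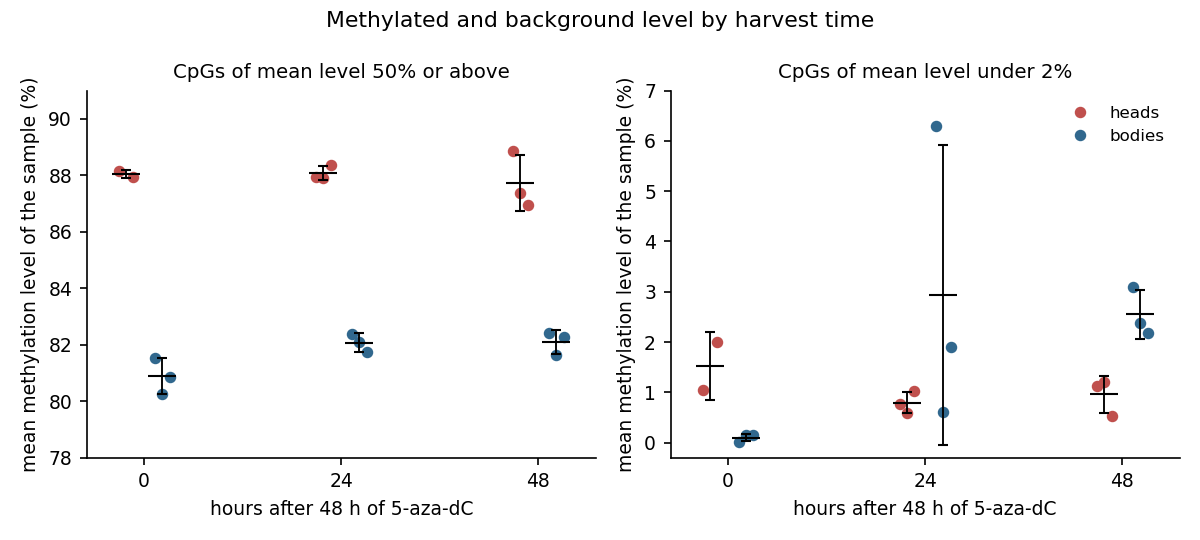
Mean methylation level of each sample (y axes, %, the left axis not starting at 0) against hours after the 48 h exposure, with heads left of bodies at each time. Points are samples, and black bars are mean and SD (n = 2 for heads at 0 h, otherwise 3). Heads lie above bodies at methylated CpGs at every time, and body background is 0.15% or less at 0 h and 0.61% to 6.29% at 24 h.

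Single CpGs were tested with a quasi-binomial logistic model of methylated and unmethylated reads (terms for tissue and harvest time, p-values adjusted by Benjamini-Hochberg over the 43065 CpGs of mean level 10% or above, threshold 0.05). The F test for any difference among the 3 times called 63 CpGs, 0.146% of those tested, and 2430 CpGs (5.64%) had an unadjusted p under 0.05. By mean level over the same 17 samples, the calls were 8 of 34519 CpGs at 10% to 20%, 30 of 3975 at 20% to 50%, 23 of 1196 at 50% to 80% and 2 of 3375 at 80% or above. The last 2 were position 12797287 of chromosome 3 and position 1269453 of scaffold GL341022. The class of 80% or above had a median of 29 reads per value, and that of 50% to 80% had 28. A CpG that differs between times is drawn to a middle class by that difference. CpGs and classes were also set by level in sucrose samples. The levels of the 17 had no part in this, though CpGs still needed reads in all 17. The calls were then 7 of 18720 at 10% to 20%, 38 of 2431 (1.56%) at 20% to 50%, 30 of 1212 (2.48%) at 50% to 80% and 6 of 3119 (0.19%) at 80% or above. Calls were spread over the genome, with 13, 12, 18, 4 and 2 on chromosomes 1 to 5 and 14 on unplaced scaffolds, where 6959, 7208, 6580, 3377, 1957 and 16984 CpGs were tested.

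By the order of the time means, most called CpGs had harvest at 24 h as their extreme. Of the 63, 39 had the highest tissue-averaged level at 24 h, 19 the lowest, 4 rose and 1 fell over the 3 times. Among all 43065 CpGs tested, 24 h was highest at 32.3% and lowest at 28.2%. No minimum margin was set for this order, so CpGs that stand apart at another time are included. Position 25392915 of chromosome 3, for one, counts as lowest at 24 h with 10.3%, 8.63% and 32.6% at 0, 24 and 48 h. The levels of the 63 CpGs are shown sample by sample in the heat map of called CpGs. Heads alone called 28 CpGs and bodies alone 17. Of the CpGs called by those fits, 16 and 14 were among the 63, and 2 were called in both, which is 2 of 28 and 2 of 17. These 2 were position 26652381 of chromosome 1 and position 145630 of GL341226.

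The count of calls depended on the model, the libraries and the harvest times used. With limma on arcsine-square-root levels no CpG was called by the F test (2828 at an unadjusted p under 0.05), and with a dispersion for each CpG alone, not moderated across CpGs, none was called (1967). With the dispersion moderated along the mean level 52 were called, 51 of them among the 63. With the background of each sample as a covariate 53 were called, 47 of them among the 63; with its logit 24 were called, all among the 63. Leaving out 1 library moved the count to 38 (without body replicate 3 at 0 h), 40 (head replicate 1 at 0 h), 97 (head replicate 2 at 0 h) or 37 (head replicate 2 at 24 h), and within 1.5 times of 63 for the other 13. In all 17 such fits 20 of the 63 were called. Without the 3 bodies with another time in the title 91 were called, 53 of them among the 63, and with the title times 4 were called, 3 of them among the 63. None of the 24 CpGs named below by the rule for named CpGs was called with the title times.

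**Figure D2:**
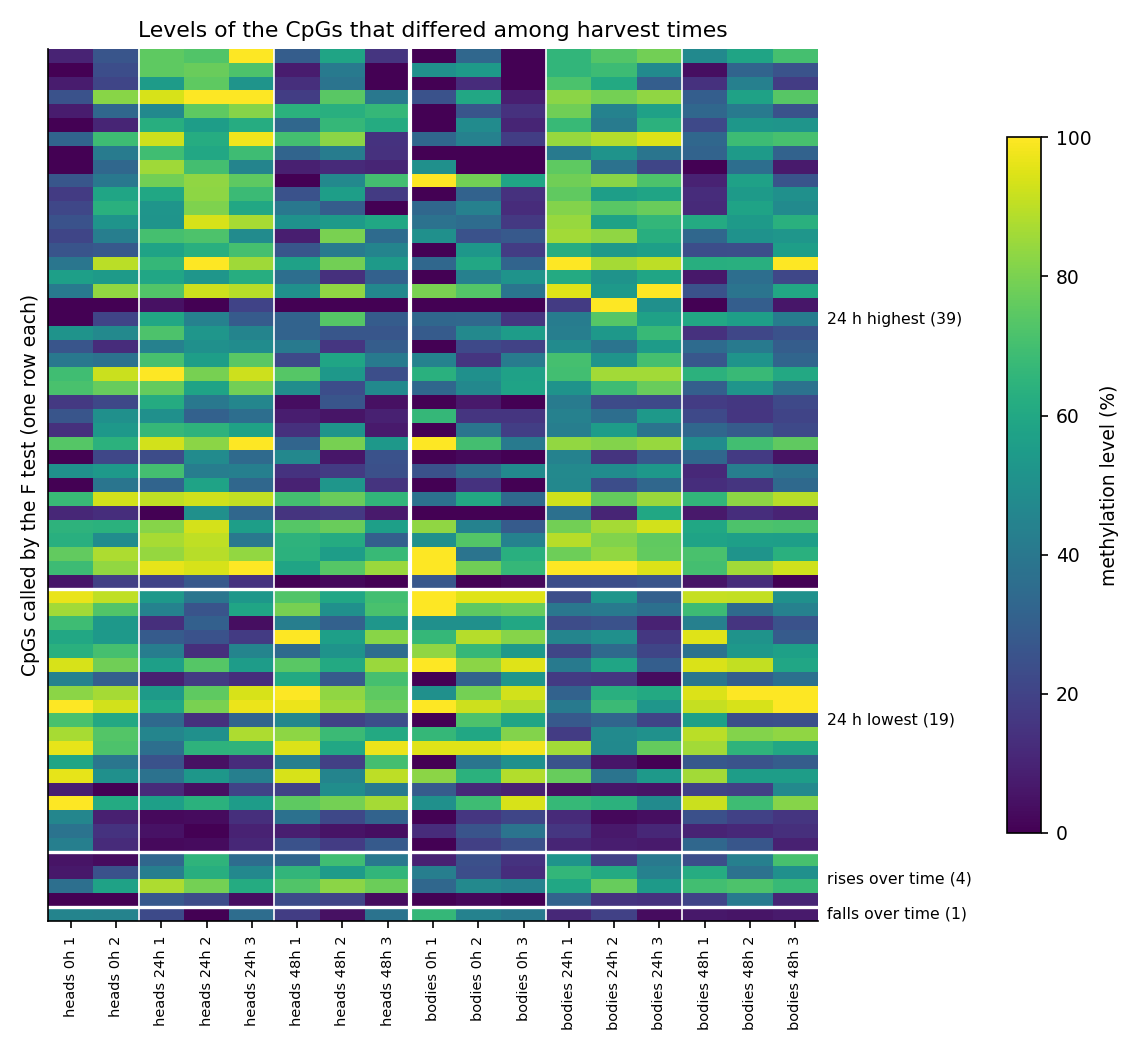
Methylation level (colour, %) of the 63 CpGs called by the F test (rows) in the 17 samples (columns, heads then bodies, each by harvest time and replicate). Rows are grouped by the order of the time means, 39 with the highest level at 24 h, 19 with the lowest at 24 h, 4 rising and 1 falling.

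Among called CpGs with the same highest and lowest time in both tissues, the largest range was at position 5833603 of chromosome 1, with 4 to 53 reads per sample. Heads had 10.0% and 26.3% at 0 h, 75.0%, 72.7% and 100% at 24 h, and 29.4%, 58.3% and 15.4% at 48 h. Bodies had 0%, 33.3% and 0% at 0 h, 65.7%, 73.3% and 78.8% at 24 h, and 47.4%, 58.5% and 70.6% at 48 h. All samples at 24 h lay above all samples at 0 h, and those at 48 h overlapped with both. The time means were 14.6%, 77.6% and 46.6% at 0, 24 and 48 h (adjusted p = 0.00026). Position 5833589, 14 bp away, had time means of 10.4%, 54.9% and 34.4% (adjusted p = 0.038). At 0 h the sucrose samples were high where the 48 h regime was low. Position 5833603 averaged 92.9% ± 8.18, 95.9% ± 4.99 and 44.0% ± 15.6 in sucrose samples at 0, 24 and 48 h (SD, n = 6 each), and the difference between the time courses passed the test (regime by harvest time, adjusted p = 2.08e-05).

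The opposite shape was largest at position 26652381 of chromosome 1, with 4 to 50 reads per sample. Heads had 96.8% and 90.3% at 0 h, 53.1%, 38.9% and 52.8% at 24 h, and 72.7%, 59.3% and 69.7% at 48 h. Bodies had 100%, 95.0% and 95.0% at 0 h, 24.0%, 52.2% and 30.6% at 24 h, and 91.2%, 90.6% and 50.0% at 48 h. In heads the 3 times did not overlap, with 48 h between the others. In bodies only 0 h stood apart from 24 h and 48 h, since replicate 3 at 48 h lay among the 24 h samples. The time means were 95.1%, 41.9% and 72.2% (adjusted p = 4.86e-07). This site passed in heads alone (adjusted p = 0.036) and in bodies alone (adjusted p = 0.00029), and in all 17 fits without 1 library. Its neighbour at position 26652379 was called as well. In sucrose samples position 26652381 averaged 58.7% ± 23.4, 71.6% ± 9.42 and 64.4% ± 12.8 at 0, 24 and 48 h (SD, n = 6 each; regime by harvest time, adjusted p = 1.76e-06).

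Position 145630 of GL341226 was low at 0 h and 48 h, with 13 to 71 reads per sample. Heads had 7.69% and 21.1% at 0 h, 55%, 75.0% and 51.7% at 24 h, and 13.3%, 38.6% and 0% at 48 h. Bodies had 0%, 12.5% and 0% at 0 h, 71.7%, 60.6% and 29.8% at 24 h, and 14.3%, 43.4% and 17.9% at 48 h. Heads at 24 h stood above all other heads, while 1 body sample at 24 h (29.8%) fell below 1 at 48 h (43.4%). The time means were 9.27%, 57.3% and 21.3% (adjusted p = 1.35e-06; heads alone 0.010, bodies alone 0.0012). In sucrose samples it averaged 10.3% ± 15.3, 13.9% ± 17.6 and 8.14% ± 9.41 at 0, 24 and 48 h (SD, n = 6 each), and the time courses of the regimes did not differ by the test (adjusted p = 0.50).

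Position 7895793 of chromosome 4 had 3 to 80 reads per sample. Heads had 32.4% and 68.8% at 0 h, 92.5%, 61.9% and 98% at 24 h, and 70.2%, 82.6% and 14.7% at 48 h. Bodies had 33.3%, 43.8% and 18.0% at 0 h, 84.5%, 88.8% and 94.9% at 24 h, and 33.3%, 68.7% and 71.1% at 48 h. Bodies at 24 h stood above all other bodies, while the heads overlapped. The time means were 41.1%, 86.8% and 56.8% (adjusted p = 4.86e-07). Bodies alone passed the test (adjusted p = 6.62e-07) and heads alone missed it (adjusted p = 0.094). In sucrose samples the levels at 0 h and 24 h were 84.8% ± 13.2 and 94.6% ± 4.61, and 35.5% ± 23.4 at 48 h (SD, n = 6 each; regime by harvest time, adjusted p = 2.08e-05).

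Position 15031276 of chromosome 1 was lowest at 24 h, with 4 to 63 reads per sample. Heads had 69.0% and 53.3% at 0 h, 13.3%, 30.6% and 3.77% at 24 h, and 42.6%, 31.1% and 52.4% at 48 h. Bodies had 50.0%, 50.0% and 60% at 0 h, 23.3%, 25.0% and 9.52% at 24 h, and 43.4%, 15.3% and 25.0% at 48 h. In each tissue the samples at 0 h stood above all samples at 24 h and 48 h, in heads by less than 1 point. The time means were 57.2%, 17.6% and 35.0% (adjusted p = 0.0011; heads alone 0.010, bodies alone 0.63). Its time course differed from those of both other regimes. Of the 24 named CpGs, 8 had reads in the 24 h regime. Sucrose samples had 19.3% ± 7.55, 41.2% ± 8.15 and 45.7% ± 4.5 at 0, 24 and 48 h (SD, n = 6 each; regime by harvest time, adjusted p = 2.21e-06). Samples fed 5-aza-dC for 24 h had 26.1% ± 11.4 at 0 h (SD, n = 6), 30.4% ± 16.0 at 24 h and 16.3% ± 7.31 at 48 h (n = 5 each; adjusted p = 0.036).

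The other 5 CpGs of the 10 with the largest ranges were called less firmly. Position 5762302 of chromosome 1 had time means of 81.7%, 41.1% and 58.0% at 0, 24 and 48 h (adjusted p = 0.015), and position 15295162 of the same chromosome had 16.7%, 55.7% and 12.4% (adjusted p = 0.031). Position 18148576 of chromosome 3 had 12.4%, 58.8% and 48.1% (adjusted p = 0.012), and position 2064931 of chromosome 4 had 17.0%, 64.0% and 48.9% (adjusted p = 0.038). Each of these 4 and position 5833589 lost its call without 1 library or another. The number of fits without 1 library that called them by the F test was 13 of 17 for position 5762302, 10 for 5833589, 7 for 15295162, 14 for 18148576 and 11 for 2064931. Head replicate 1 at 0 h and body replicate 3 at 0 h were the libraries whose absence ended all 5 of these calls. None of the 24 named CpGs changed direction under any alternative tried.

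**Figure D3:**
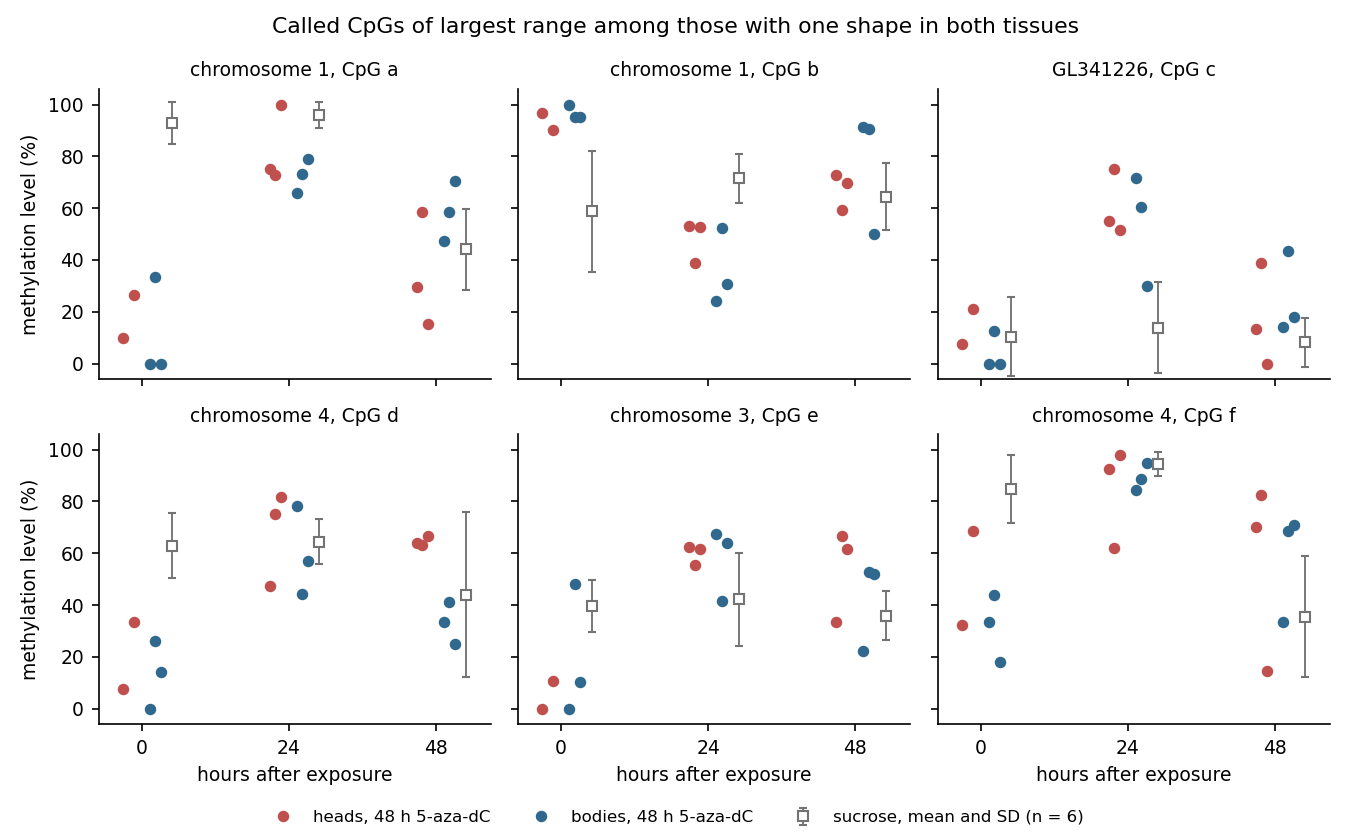
Methylation level (%) of the 6 CpGs with the largest range over harvest times among called CpGs whose highest and lowest times are the same in both tissues, in heads (red) and bodies (blue) of the 48 h regime, with the mean and SD of 6 sucrose samples at the same time as open squares. Panel a is position 5833603 of chromosome 1, where samples at 24 h reach 65.7% to 100% and those at 0 h 0% to 33.3%; b is position 26652381, c position 145630 of GL341226, d position 2064931 and f position 7895793 of chromosome 4, and e position 18148576 of chromosome 3.

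Pairs of times were compared in the same model. Between 24 h and 0 h, 47 CpGs differed (0.109% of 43065), 32 higher and 15 lower at 24 h, and 2343 had an unadjusted p under 0.05. Their median difference was 32.4 points in size, with a range of 17.8 to 63.0, against 4.68 points over all CpGs tested. All 47 had the same sign in heads and bodies. The model fits a single time effect to both tissues, which favours such CpGs, and the share among all CpGs tested was not computed. In heads the 24 h samples did not overlap with the 0 h samples at 35 of the 47, and in bodies at 34, against 19.6% and 13.2% of all CpGs tested. Heads alone called 4 and bodies alone 13. With limma 3 were called (3524 at an unadjusted p under 0.05), namely positions 5833589, 5833603 and 26652381 of chromosome 1. With background as a covariate 24 were called, with its logit 6, without the 3 bodies with other titles 74 and with the title times none. Without 1 library the count was 10 (body replicate 3 at 0 h), 13 (head replicate 1 at 0 h), 71 (head replicate 2 at 0 h) or 30 (head replicate 2 at 24 h), and 7 of the 47 were called in all 17 such fits.

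Besides the CpGs given above, the largest differences of 24 h and 0 h with the same sign in both tissues included position 1325585 of GL341021. It had 25.0% and 82.4% in heads and 25.0%, 60% and 8.33% in bodies at 0 h. At 24 h it had 93.8%, 100% and 100% in heads and 82.5%, 79.2% and 83.3% in bodies, and at 48 h 18.2%, 74.4% and 40% in heads and 30.0%, 57.5% and 73.9% in bodies. Heads at 24 h stood above all other heads and bodies at 24 h above all other bodies (24 h − 0 h, 47.4 points, adjusted p = 0.020; 48 h − 24 h, -40.8 points, adjusted p = 0.0071). The call between 24 h and 0 h was lost without body replicate 3 or head replicate 1 at 0 h or head replicate 2 or 3 at 24 h, with an adjusted p of up to 0.39. The call between 48 h and 24 h was lost without body or head replicate 1 at 48 h, with an adjusted p of up to 0.14. Lower at 24 h were position 1183178 of GL340974 (67.5%, 29.4% and 44.9% at 0, 24 and 48 h, adjusted p = 0.0089 for 24 h − 0 h) and position 7818102 of chromosome 2 (47.9%, 4.42% and 14.2%, adjusted p = 0.037). The call at position 1183178 was lost without head replicate 1 at 0 h (adjusted p = 0.053). Position 7818102 rested on 5 to 22 reads per sample, its heads had 0% in 7 of 8 samples, and its call was lost in 8 of 17 fits without 1 library, among them those without body replicate 1 or 2 at 0 h.

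Few CpGs differed between the ends of the time course. Between 48 h and 0 h, 4 CpGs differed (0.00929% of 43065), 3 higher and 1 lower at 48 h, and 2385 had an unadjusted p under 0.05. Position 18858402 of chromosome 2 had 6.45% and 25.0% in heads and 42.9%, 23.5% and 13.0% in bodies at 0 h. It had 42.9%, 62.9% and 46.7% in heads and 66.0%, 61.2% and 44.1% in bodies at 24 h, and 65.9%, 54.8% and 65.6% in heads and 61.9%, 37.9% and 50.0% in bodies at 48 h. Heads at 0 h lay below all other heads, and bodies at 0 h overlapped with those at 48 h (48 h − 0 h, adjusted p = 0.024). Position 1269400 of GL341022 had time means of 10.1%, 40.8% and 46.7% (adjusted p = 0.024) and position 855420 of chromosome 2 had 0.36%, 19.3% and 19.8% (adjusted p = 0.046). Position 291805 of GL341004 was the one that was lower at 48 h, with 45.2% and 44.8% in heads and 66.7%, 44.2% and 41.2% in bodies at 0 h. It had 22.6%, 0% and 35.6% in heads and 11.7%, 19.4% and 3.51% in bodies at 24 h, and 18.1%, 4.44% and 38.1% in heads and 6.25%, 5.56% and 7.32% in bodies at 48 h. No sample at 24 h or 48 h reached those of 0 h (48 h − 0 h, adjusted p = 0.0039), and the sucrose samples at this site stayed at 1.1% ± 1.73, 1.96% ± 1.55 and 11.4% ± 7.79 (SD, n = 6 each; regime by harvest time, adjusted p = 0.0010).

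The 4 calls between 48 h and 0 h were the least stable. Limma, background as a covariate, its logit and the title times each gave none, and 7 were called without the 3 bodies with other titles. Without 1 library the count was 0 (body replicate 3 at 0 h), 1 (head replicate 1 at 0 h, head replicate 2 at 0 h or head replicate 2 at 48 h) or 2 (body replicate 2 at 0 h, body replicate 1 at 48 h or head replicate 1 at 48 h). Position 291805 kept its call in 16 of the 17 fits without 1 library, and had an adjusted p of 0.055 without body replicate 3 at 0 h.

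Between 48 h and 24 h, 41 CpGs differed (0.0952% of 43065), 13 higher and 28 lower at 48 h, and 2229 had an unadjusted p under 0.05. The median size of the called differences was 28.3 points, against 3.39 points over all CpGs tested. Heads alone called 17 and bodies alone 5, limma none (1084 at an unadjusted p under 0.05), the logit of background as a covariate 27, and the title times none. Without 1 library the count was 24 (head replicate 1 or 2 at 24 h), 19 (body replicate 1 at 48 h), 22 (head replicate 1 at 48 h) or 23 (head replicate 3 at 48 h). This contrast shares its 24 h samples with that of 24 h and 0 h, so a CpG that is extreme at 24 h enters both with opposite signs.

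The lowest adjusted p of this contrast among the named CpGs was at position 27890393 of chromosome 2, with 4 to 51 reads per sample. Heads had 0% and 23.5% at 0 h, 75.0%, 77.3% and 71.9% at 24 h, and 7.69%, 41.2% and 0% at 48 h. Bodies had 50.0%, 54.5% and 0% at 0 h, 65.9%, 68.6% and 48.0% at 24 h, and 3.85%, 32.4% and 25.6% at 48 h. Every sample at 24 h was above every sample at 48 h (48 h − 24 h, adjusted p = 4.53e-05, called in all 17 fits without 1 library). Position 2313896 of chromosome 4 had time means of 56.2%, 78.2% and 35.0% (48 h − 24 h, adjusted p = 0.0013), and position 127938 of ChrUn_0005 had 36.2%, 70.9% and 31.2% (adjusted p = 0.0255). By tissue, position 2313896 had 33.3%, 79.0% and 39.0% in heads and 79.1%, 77.4% and 30.9% in bodies at 0, 24 and 48 h. Its mean thus rose from 0 h to 24 h in heads alone. Higher at 48 h than at 24 h were position 20618907 of chromosome 2 (68.0%, 30.5% and 69.0%, adjusted p = 0.0255), position 2386321 of chromosome 2 (41.2%, 17.8% and 51.9%, adjusted p = 0.037), position 6332708 of chromosome 1 (32.7%, 12.6% and 44.2%, adjusted p = 0.013) and position 8120633 of chromosome 5 (32.3%, 5.46% and 39.8%, adjusted p = 0.047). At position 8120633 the heads had 83.3% and 7.14% at 0 h and 100%, 13.3% and 13.3% at 48 h. Their means at these times thus rested on head replicate 1, with 12 reads each time. Of the 6 CpGs given after position 27890393, position 2313896 alone was called in all 17 fits without 1 library, and the others in 9 to 13. The libraries whose absence ended 4 or more of those 5 calls were body replicate 3 and head replicate 1 or 2 at 24 h, and head replicate 1 and body replicate 1 at 48 h.

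Some called CpGs lay next to each other. The 63 CpGs called by the F test lay in 46 loci, counting CpGs within 200 bp of each other as one, and 11 loci held 2 or more of them, 28 CpGs in all. At 281 tested CpGs that lay within 200 bp of a called CpG but were not called, the difference between the called CpG's highest and lowest times had the same direction in 226 (80.4%), with a median of 6.26 points. None of these passed the test, and the share among other CpGs was not computed. Reads often span neighbouring CpGs, so these levels share molecules and are a description.

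The locus with the most called CpGs, singled out after the values were seen, was at positions 20847419 to 20847524 of chromosome 3, with 5 calls. Its first 4 CpGs were lowest at 48 h. At position 20847430 the heads had 51.4% and 47.2% at 0 h, 72.1%, 52.7% and 45.0% at 24 h, and 31.7%, 26.7% and 26.8% at 48 h. The bodies had 28.6%, 47.1% and 55.4% at 0 h, 42.9%, 53.1% and 67.5% at 24 h, and 14.3%, 21.2% and 25.0% at 48 h. In each tissue all samples at 48 h lay below all those of 0 h and 24 h (F test, adjusted p = 0.00019). The fifth CpG, at position 20847524, had 25.9%, 8.0% and 8.7% at 0, 24 and 48 h. Here the title times gave calls as well, at positions 20847430 and 20847439 (adjusted p = 0.042 each); the other 2 of the 4 calls with those times were positions 90874 and 25392915 of chromosome 3.

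Reads were also summed over 640 clusters, made of 3112 CpGs of mean level 50% or above that follow each other within 200 bp, 3 or more in each, with a median of 118 reads per cluster and sample. The F test called 2 clusters (0.312%), and 73 had an unadjusted p under 0.05. Clusters of 5 or more CpGs within 500 bp of each other gave no call among 265 (33 at an unadjusted p under 0.05). Over all 640, the median difference was 0.62 points for 24 h − 0 h, 0.55 points for 48 h − 0 h and -0.17 points for 48 h − 24 h.

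The cluster at positions 171186 to 171423 of GL340802, 4 CpGs over 238 bp, was low at 0 h. Heads had 59.8% and 69.2% at 0 h, 84.4%, 92.8% and 91.2% at 24 h, and 81.3%, 82.9% and 74.2% at 48 h. Bodies had 53.8%, 56.0% and 34.0% at 0 h, 85.3%, 86.4% and 82.4% at 24 h, and 70.8%, 79.5% and 92.0% at 48 h. Every sample at 0 h was below every sample at 24 h and 48 h of either tissue. The cluster was 30.9 points higher at 24 h than at 0 h (adjusted p = 9.01e-05), and 23.9 points higher at 48 h than at 0 h (adjusted p = 0.0088), while 48 h and 24 h differed by -6.95 points (adjusted p = 0.47). Limma called it as well (F test, adjusted p = 0.0056; 24 h − 0 h, 0.0017), and the F test and the contrast of 24 h and 0 h were called in all 17 fits without 1 library. The contrast of 48 h and 0 h was lost without body replicate 3 at 0 h (adjusted p = 0.17) and under limma (0.054). With the title times no contrast of this cluster was called (F test, adjusted p = 0.55), and without the 3 bodies with other titles the F test gave 0.0037. All 4 of its CpGs were lowest at 0 h, and the third had 34.1%, 73.4% and 57.4% at 0, 24 and 48 h. In sucrose samples the cluster averaged 81.7% ± 6.2, 84.5% ± 4.7 and 75.5% ± 7.4 at 0, 24 and 48 h (SD, n = 6 each). The lowest sucrose sample had 68.1%, and 4 of the 5 samples of the 48 h regime at 0 h lay below it. In samples fed 5-aza-dC for 24 h, over the 3 of its CpGs with reads there, it averaged 86.8% ± 5.0 at 0 h (SD, n = 6), 88.5% ± 5.4 at 24 h and 88.7% ± 8.2 at 48 h (n = 5 each). The 48 h regime was not averaged over those 3 alone, and the CpGs differ in level, so these values cannot be set directly against those of the 48 h regime.

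The cluster at positions 12797287 to 12797308 of chromosome 3, 3 CpGs over 22 bp, was low at 24 h. Heads had 90.1% and 84.4% at 0 h, 53.1%, 68.5% and 92.8% at 24 h, and 93.2%, 79.2% and 71.3% at 48 h. Bodies had 75.0%, 77.2% and 87.6% at 0 h, 30.2%, 59.7% and 54.5% at 24 h, and 91.7%, 91.8% and 94.4% at 48 h. In bodies the samples at 24 h lay below all others, and in heads replicate 3 at 24 h was as high as those of 0 h and 48 h. The F test gave an adjusted p of 0.020, and 48 h − 24 h was 27.1 points (adjusted p = 0.025). Limma did not call it (0.39), nor did the fits with title times (0.83) or without the 3 bodies with other titles (0.15), and the F test called it in 11 of 17 fits without 1 library. The number of clusters called by the F test was 1 without body replicate 3 at 0 h, body replicate 3 or head replicate 1 at 24 h, or body replicate 1, body replicate 2 or head replicate 1 at 48 h. It was 5 without head replicate 2 at 0 h and 4 without head replicate 3 at 24 h. Sucrose samples were at 80.8% ± 7.5, 86.5% ± 2.8 and 82.1% ± 7.9 at 0, 24 and 48 h (SD, n = 6 each).

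**Figure D4:**
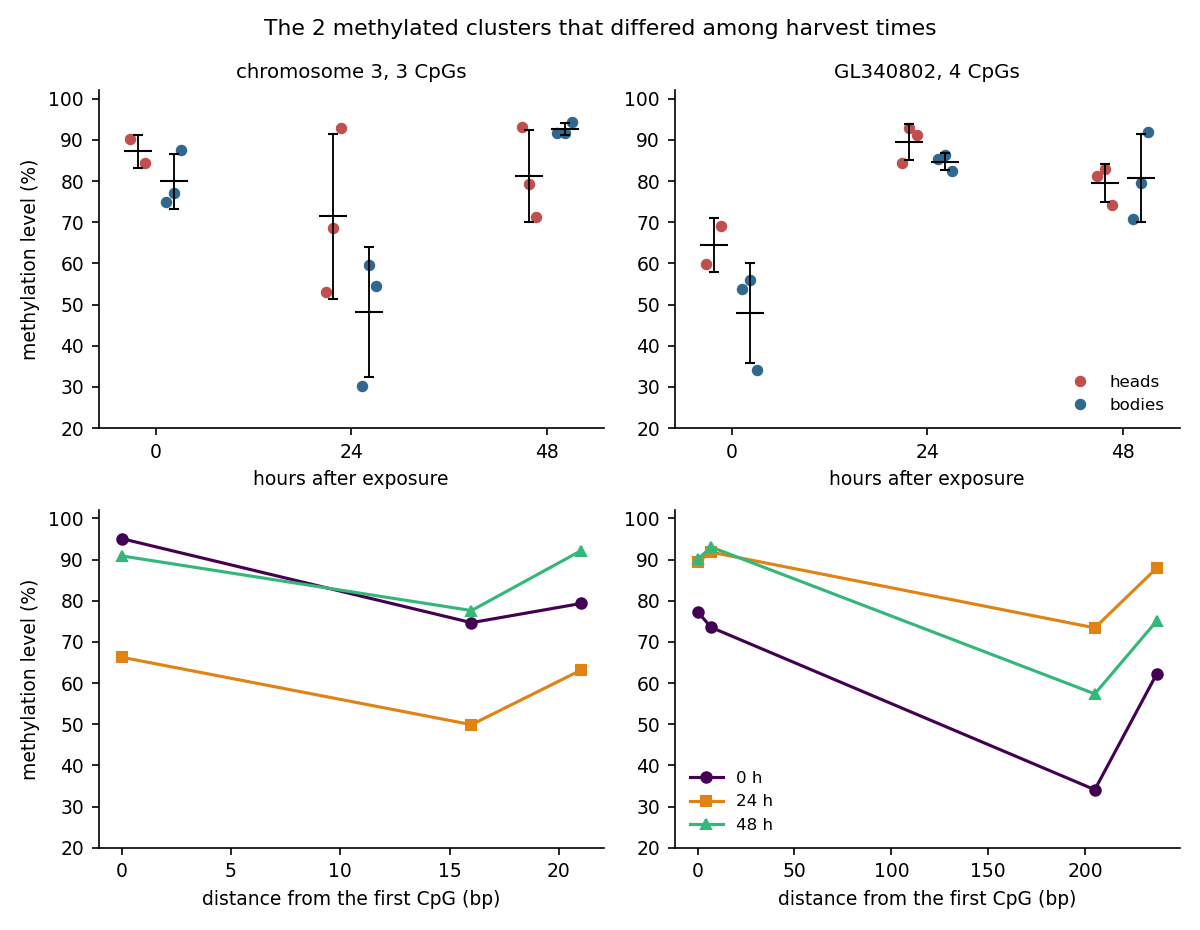
Top, methylation level (%, axis from 20) of the 2 called clusters in each sample of the 48 h regime, heads left of bodies, with mean and SD (n = 2 for heads at 0 h, otherwise 3). Bottom, tissue-averaged level of each CpG against its distance from the first CpG (bp). In the GL340802 cluster every sample at 0 h lies below every other sample, and all 4 CpGs are lowest at 0 h.

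Whether the time course differed between heads and bodies was tested by the interaction of tissue and harvest time. It called no CpG (0% of 43065), with 2288 at an unadjusted p under 0.05, and limma called none either (2651). The lowest p was at position 247 of ChrUn_1064, where heads had 56.9% ± 13.9 (n = 2), 34.3% ± 10.3 and 25.6% ± 17.6 (n = 3 each) at 0, 24 and 48 h and bodies had 2.15% ± 2.3, 37.4% ± 22.5 and 39.6% ± 11.5 (SD, n = 3 each; adjusted p = 0.10). The next were position 11789753 of chromosome 3 (adjusted p = 0.44) and position 9162807 of chromosome 5 (0.81), neither of which passed.

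The time course of the 48 h regime was set against that of sucrose-fed females at CpGs with reads in both. At methylated CpGs (4337), heads of the 48 h regime had 87.8% ± 0.18 at 0 h (SD, n = 2), 87.9% ± 0.21 at 24 h and 87.6% ± 1.0 at 48 h (n = 3 each), against 87.1% ± 0.092, 87.1% ± 0.18 and 86.9% ± 0.44 in sucrose heads (n = 3 each). Bodies of the 48 h regime had 80.6% ± 0.59, 81.9% ± 0.29 and 82.0% ± 0.44, against 79.9% ± 0.16, 80.9% ± 0.32 and 81.1% ± 0.35 in sucrose bodies (SD, n = 3 each). The change from 0 h to 24 h was 0.67 points in the 48 h regime and 0.48 points in sucrose samples, a difference of 0.20 points (permutation of regimes within tissue and time, p = 0.66, adjusted p = 0.95 over 9 tests). No change of methylated, intermediate or background level passed this test (adjusted p of 0.95 for each). The shuffling treats the regimes as alike at each time. At methylated CpGs the mean of the 48 h regime lay above that of sucrose samples in both tissues at each time, which widens the permuted differences. The test also averaged heads and bodies, whose background changed in opposite directions in the 48 h regime. These p-values therefore cannot decide whether the time courses differed.

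At single CpGs, the interaction of regime and harvest time against sucrose called 94 of 31109 CpGs (0.302%; 2256 at an unadjusted p under 0.05), and against the 24 h regime 9 of 20459 (0.044%; 1462). Of the 63 CpGs called in the 48 h regime, 59 could be tested against sucrose and 25 were called; since they were chosen on the same samples, this is given as a description. The shapes in sucrose samples were counted as well. Of 37 CpGs with the highest level at 24 h in the 48 h regime and reads in sucrose samples, 15 were highest at 24 h in sucrose samples, where 35.6% of all CpGs tested with reads were. Of 19 with the lowest level at 24 h, 3 were lowest at 24 h in sucrose samples, against 29.5% of all. The median range of the time means at called CpGs was 29.5 points in the 48 h regime and 14.5 points in sucrose samples, against 7.12 and 5.34 points over all CpGs with reads in both.

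Levels also differed between harvest times in the other regimes. At the 16283 CpGs tested with reads in all 51 samples, the same F test called 45 CpGs in the 48 h regime (0.276%), 13 in the 24 h regime (0.0798%) and 200 in sucrose samples (1.23%). Between 24 h and 0 h the calls were 17 in the 48 h regime, 9 in the 24 h regime and 34 in sucrose samples. Between 48 h and 0 h they were 2, 1 and 142, and between 48 h and 24 h they were 21, 2 and 125. Of the 45 CpGs of the 48 h regime, 12 were called in sucrose samples as well, which is 12 of 45 and 12 of 200, and 2 in the 24 h regime, 2 of 45 and 2 of 13. By this count the never exposed females had more called differences between harvest times than females after 48 h of 5-aza-dC. The regimes differ in number of samples (17, 16 and 18) and in reads, and counts of calls were not tested against each other. In each regime the titles of some body samples give another harvest time, and title times were not tried in this comparison.

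**Figure D5:**
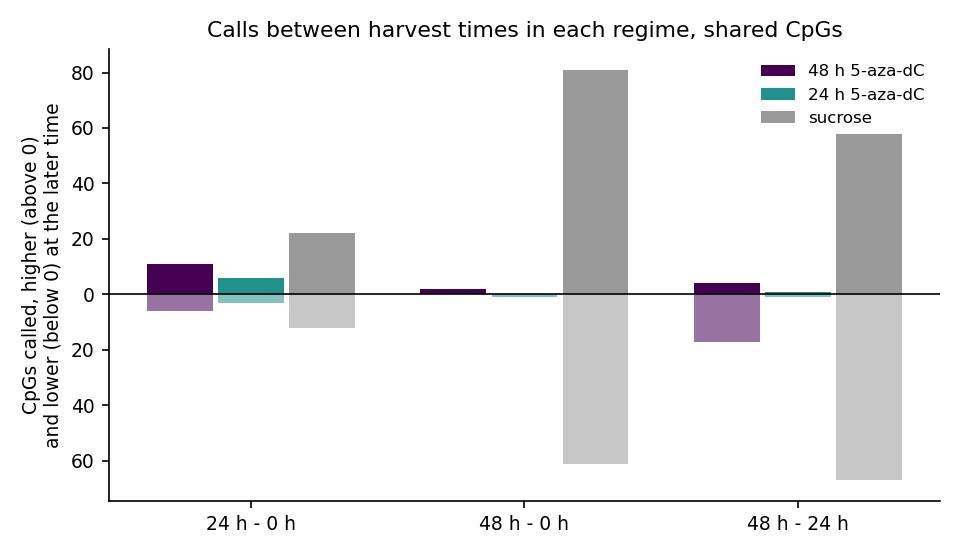
Number of CpGs called between pairs of harvest times (y axis, higher at the later time above 0 and lower below 0, paler) in the 48 h regime, the 24 h regime and sucrose samples, at 16283 CpGs with reads in all 51 samples. The 48 h regime has 17, 2 and 21 calls for 24 h − 0 h, 48 h − 0 h and 48 h − 24 h, and sucrose samples 34, 142 and 125.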

How the data were processed

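The authors deposited one table in which each cell pairs 2 raw read counts of a CpG in a sample, methylated and total, for 51 samples and with no normalization. Levels were computed here from these pairs. Per the submitters' processing notes, cutadapt 1.12, Bismark 0.16, Bowtie2, SAMtools and methylKit 0.99.3 in R 3.3.1 were used; the genome build is not given in the sources used here. Per the labels' protocols, DNA was bisulphite converted and sequenced as paired reads on an Illumina HiSeq. Duplicate removal is not given in the sources used here, so intervals of counting were not made.

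CpGs with reads in all 17 samples and a mean level of 10% or above were fitted with a quasi-binomial logistic model (Python 3.11.15, numpy 2.4.6, scipy 1.17.1, pandas 2.3.3). The Pearson dispersion was moderated across CpGs with squeezeVar of limma 3.58.1 in R 4.3.3, with a floor of 1. On simulated reads the model recovered most changed CpGs, and called slightly more unchanged ones than the threshold allows. The simulation gave all CpGs the same spread between samples beyond the sampling of reads, and drew heads and bodies independently. Changed CpGs were shifted by a fixed size at 24 h alone. It therefore could not test the moderation of the dispersion where CpGs differ in spread, as they may in the samples. Sample means of harvest times were compared by exact permutation of times within tissue. The change in heads minus that in bodies was compared by exact permutation of tissues within harvest time, and regimes with 100000 permutations. A contrast is the later minus the earlier time, averaged over tissues.

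Named CpGs are the 10 with the largest range among those called by the F test whose highest and lowest times are the same in both tissues, the 5 highest and 5 lowest of each contrast with the same sign in both tissues, all called clusters, and the 3 of lowest p where nothing was called. The samples, classes and rules were chosen with earlier results of these data known. A rule for CpGs that an earlier account singled out, and gene lists, were not applied. Replicate numbers follow the order of the samples and pair nothing. All columns of samples were mapped, and 0 were left out. Alternatives were limma on arcsine-square-root levels, coverage, level minimum, background covariate, dispersion, title times, and leaving out samples. Figures used matplotlib 3.10.9.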

Additional observations from a re-analysis of the deposited data

Results flagged for a closer look

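Among the 5 or 6 samples of a harvest time, 3 sample-level values stood apart from the rest by Dixon's gap test, of 12 groups of values looked at. These were the intermediate level of replicate 1 of bodies at 0 h (20.8%), the shallowest library, and the intermediate level (19.9%) and background (6.29%) of replicate 1 of bodies at 24 h. Both samples have another harvest time in their title. Chance flags about 1 in 20 groups.

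At the named CpGs, 8 of 72 groups had such a sample. At 0 h these were head replicate 2 at position 5833589 of chromosome 1 (41.7%, 12 reads), body replicate 2 at position 855420 of chromosome 2 (2.17%, 1 of 46 reads), body replicate 2 at position 18148576 of chromosome 3 (48.1%) and body replicate 1 at position 291805 of GL341004 (66.7%, 3 reads). At 24 h it was head replicate 2 at position 7895793 of chromosome 4 (61.9%). At 48 h they were body replicate 2 at position 15295162 of chromosome 1 (36.0%), body replicate 1 at position 7818102 of chromosome 2 (72.7%, 11 reads) and head replicate 1 at position 8120633 of chromosome 5 (100%, 12 reads). At positions 5833589 and 855420 all other samples of 0 h had 0%, so any methylated read in a single sample is flagged. The rate of flags by chance given above does not hold for such groups.

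The change of background between 48 h and 0 h was flagged, with heads minus bodies at -3.02 points (exact permutation of tissues within harvest time, p = 0.005, adjusted p = 0.045). A tissue difference at a single time also enters that p-value. With the title times the change in heads minus that in bodies was 0.10 points (p = 0.985, exact permutation) and the call was lost. The time course differed between regimes at 94 CpGs for the 48 h regime against sucrose, and at 9 CpGs against the 24 h regime. Head and body libraries that share deviations, and libraries of unequal depth, enter these counts, and their part was not tested.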

How the results depend on the processing

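The number of called CpGs was the least stable result. By the F test it was 63, against 0 with limma, 0 with limma without body replicate 1 at 0 h, 0 with unmoderated dispersion, 0 with no minimum level (0 of 1831418, 179906 at an unadjusted p under 0.05), 24 with the logit of background, 4 with title times, 28 in heads, 17 in bodies and 29 at a minimum level of 50%. For 24 h − 0 h it was 47, against 3 with limma, 2 with limma without that library, 24 with background as a covariate, 6 with its logit, 74 without the 3 bodies with other titles, 4 in heads, 13 in bodies, 21 at a minimum level of 50%, and 0 with title times, no minimum level or unmoderated dispersion. For 48 h − 0 h it was 4, against 7 without those 3 bodies, 1 with dispersion moderated along the level, and 0 with limma, limma without that library, background, its logit, title times, bodies, a minimum level of 50%, no minimum level or unmoderated dispersion. For 48 h − 24 h it was 41, against 27 with the logit, 17 in heads, 5 in bodies, 26 at a minimum level of 50%, and 0 with limma, limma without that library, title times, no minimum level or unmoderated dispersion. Without 1 library in turn the counts ran from 37 to 97 by the F test, 10 to 71 for 24 h − 0 h, 0 to 4 for 48 h − 0 h and 19 to 60 for 48 h − 24 h.

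Clusters called by the F test numbered 2, against 1 with limma or without the 3 bodies and 0 with title times or clusters of 5 CpGs (1 to 5 without 1 library). For 24 h − 0 h the count was 1, against 0 with title times or clusters of 5 CpGs (1 to 3). For 48 h − 0 h it was 1, against 0 with limma, the logit, title times or clusters of 5 CpGs (0 to 1). For 48 h − 24 h it was 1, against 2 with background as a covariate and 0 with limma, without the 3 bodies, title times or clusters of 5 CpGs (0 to 2). The difference in time course between regimes was called at 94 CpGs against sucrose and at 9 against the 24 h regime.

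Sample-level differences that changed sign had not passed the test, apart from the difference of the tissues in background given below. For methylated CpGs these were 48 h − 0 h in heads (-0.32) and 48 h − 24 h in bodies (0.030; -0.44 to 0.038 without 1 library). For intermediate CpGs, 24 h − 0 h was 0.029 with summed reads, 0.54 with 10 reads, 0.32 without the 3 bodies, 0.51 in bodies, 1.15 with classes set in sucrose samples, 0.14 with those and background removed, and 1.25 without the shallowest library (-0.94 to 1.24 without 1 library). Their 48 h − 0 h was 0.041 with 10 reads, 0.47 without the 3 bodies, 0.24 with title times, 0.34 in bodies, 0.66 with sucrose classes and 0.86 without the shallowest library (-1.54 to 0.81), and their 48 h − 24 h was 0.15 without the 3 bodies and 0.54 with title times (-1.52 to 0.49). For background, 24 h − 0 h was -0.52 with title times and -0.73 in heads, 48 h − 0 h was -0.62 and -0.57, and 48 h − 24 h was 0.59 without the 3 bodies, 0.16 in heads and 0.17 with sucrose classes (-0.69 to 0.73). The difference of the tissues in background, 48 h − 0 h, was -3.02, against 0.10 with title times, -2.70 without the 3 bodies and -2.78 without the shallowest library, none of which passed (-3.50 to -2.53 without 1 library, lost without each of the 11 libraries of 0 h and 48 h). The other 419 comparison results under alternatives kept their direction and side of the threshold, or, for counts, were within 1.5 times of the main count, though values could still differ: 24 h − 0 h at methylated CpGs was 0.60, against 0.024 in heads and 1.18 in bodies. Of the results of named CpGs, 580 kept their call status, 353 lost it and 0 changed sign. The causes were not tested. The logit, both dispersions, sucrose classes, alternatives of the tissue difference and fits without the shallowest library were chosen after seeing the data. No paired analysis was possible because the labels give no replicate numbers that groups share. Depth was a median of 24 reads per value at tested CpGs.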
